A study of Drosophila melanogaster with 2 samples.

Results

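The microRNAs mir-14 and bantam of Drosophila melanogaster were followed through all their listed products, 4 of the 101 microRNA products and 2 of the 83 hairpins in the deposited table. They were chosen by hairpin accession, MI0000136 for mir-14 and MI0000387 for bantam, a rule that uses no measured value but was proposed with earlier results of these data known. The table gives accessions without names. The names came with the rule, and they could not be checked against a registry or sequence here. The libraries came from whole larvae aged 48 hours and grown at 25 °C. The homozygous mutant larvae, which carried the allele cdk9-G57S, gave 1 library, and wild-type larvae gave 1. Cdk9 is the kinase that releases paused RNA polymerase II into elongation, and the title of the series places the study's question in the recruitment of the Microprocessor to elongating polymerase. The labels do not say how many larvae were pooled or in which background the allele was kept.

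A microRNA hairpin is cut from its primary transcript by the Microprocessor, the complex of Drosha and Pasha, and then by Dicer. This leaves a duplex, of which one strand is usually kept in an Argonaute protein while the other is usually lost. Both microRNAs are known in the fly for restraining cell death. Bantam promotes growth and represses hid, a gene that drives apoptosis, and it is itself driven by Yorkie, the effector of the Hippo pathway. Mir-14 was found as a suppressor of cell death and also acts on fat metabolism, on the ecdysone receptor, and on insulin production in neurosecretory cells of the brain.

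In the RefSeq gene table (Release 6), bantam is the gene mir-ban, with a hairpin of 81 nucleotides inside the non-coding gene lncRNA:CR43334, which has the synonym pri-bantam. The gene mir-14 has a hairpin of 63 nucleotides inside lncRNA:CR43651, which has the synonym pri-mir-14. No other microRNA gene of that table starts within 10 kb of either of them, so each is a single hairpin and not part of a cluster at that distance. The reads were mapped to an older build, dm3, and no position is given for that reason.

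Each hairpin had 2 listed products, with the suffixes 1 and 2. In both hairpins product 2 was the more abundant in both libraries. The suffix is not explained in the table and was not read as an arm of the hairpin. Values below are raw reads and shares, the percentage of the library's reads over the 101 products, which was 2204104 reads for cdk9-G57S and 2135660 reads for wild type. With 1 library per genotype there is no replicate spread, no test between genotypes and no p-value, and the genotype cannot be told apart from any other difference between the 2 RNA samples or preparations. Each interval is a 95% interval that covers counting error only, and PCR copies of a read count as further reads. In RNA from whole larvae, fewer cells that make a microRNA and less of it per cell cannot be told apart.

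The main products of both microRNAs took a larger share of the cdk9-G57S library, and the minor products of both took a smaller one. The main product of mir-14 was 3.11-fold higher and that of bantam 2.35-fold higher, while the minor product of mir-14 was 5.05-fold lower and that of bantam 1.42-fold lower. Together the 4 products made up 19.1% of the cdk9-G57S reads and 6.76% of the wild-type reads, or 420015 and 144413 reads.

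The main product of bantam, MI0000387_2, had 63019 reads in cdk9-G57S and 25946 in wild type. Its share was 2.86% in cdk9-G57S (exact Clopper-Pearson interval 2.84 to 2.88) and 1.21% in wild type (1.20 to 1.23). By abundance it was number 6 of all products in cdk9-G57S and number 17 in wild type. The share in cdk9-G57S divided by that in wild type gave a ratio of 2.35, with an exact conditional binomial interval of 2.32 to 2.39, and its log2 was 1.23.

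The main product of mir-14, MI0000136_2, had 351685 reads in cdk9-G57S and 109726 in wild type. Its share was 16.0% in cdk9-G57S (15.9 to 16.0) and 5.14% in wild type (5.11 to 5.17). By abundance it was number 2 in cdk9-G57S and number 3 in wild type. The ratio of shares was 3.11 (3.08 to 3.13), a log2 ratio of 1.63.

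The minor product of bantam, MI0000387_1, ran the other way. It had 4904 reads in cdk9-G57S and 6750 in wild type, with shares of 0.222% (0.216 to 0.229) and 0.316% (0.309 to 0.324). The ratio of 0.704 (0.678 to 0.730), a log2 ratio of -0.51, lay within 2-fold. It ranked 51 in cdk9-G57S, where its counting interval overlapped those of both its neighbours in rank, and 39 in wild type, where it overlapped only the one below. Its exact place in the order is therefore not set by these reads.

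The minor product of mir-14, MI0000136_1, was the least abundant of the 4. It had 407 reads in cdk9-G57S and 1991 in wild type, with shares of 0.0185% (0.0167 to 0.0203) and 0.0932% (0.0892 to 0.0974). It ranked 98 of the 101 products in cdk9-G57S and 71 in wild type, but its counting interval overlapped that of 1 neighbour in rank in each library. The ratio was 0.198 (0.178 to 0.220), a log2 ratio of -2.34, and it rested on the fewest reads of the 4.

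**Figure D1:**
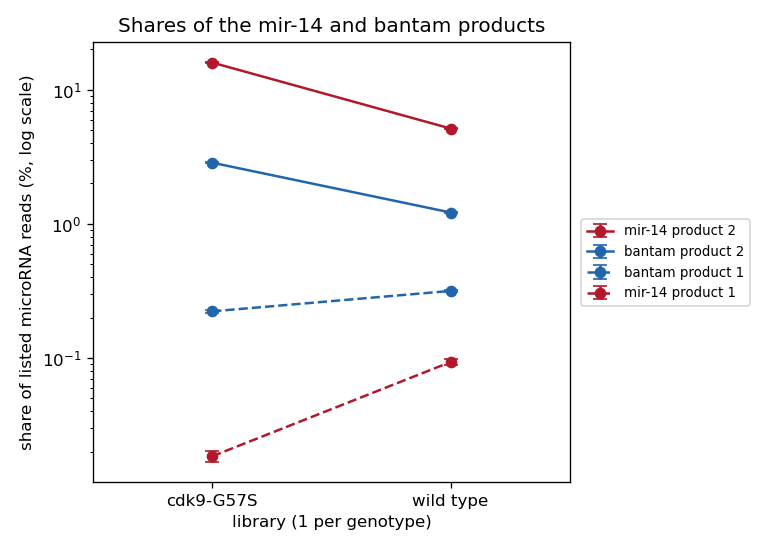
Share of the listed microRNA reads (percent, log scale) for the 4 products in the cdk9-G57S library (left) and the wild-type library (right); bars are 95% exact counting intervals, mostly smaller than the points, and solid lines mark product 2, dashed lines product 1. The main products lie higher in cdk9-G57S (16.0% against 5.14% for mir-14, 2.86% against 1.21% for bantam), and the minor products lie lower (0.0185% against 0.0932% for mir-14, 0.222% against 0.316% for bantam).

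The order of the 4 products was the same in both libraries, with the main product of mir-14 first, then that of bantam, the minor product of bantam and the minor product of mir-14. None of these 4 neighbours overlapped in counting interval within a library. The distance between the first and the last was wider in the mutant: the main product of mir-14 had 864 reads for each read of its partner in cdk9-G57S, against 55.1 in wild type.

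Differences of at least 2-fold were common in the table, while 14 of the 101 products passed a 4-fold limit. By the rule that a ratio is at least 2, or at most 0.5, with a counting interval that leaves out 1, 27.7% of the 101 products were higher in cdk9-G57S (28 products), 16.8% were lower (17 products), and 44.6% passed in either direction. Of the 4 products of mir-14 and bantam, 2 were higher, 1 was lower and 1 lay within 2-fold. Both main products stood in the upper part of the distribution but not at its end: counted from the highest ratio, that of mir-14 was number 18 and that of bantam number 25. Counted from the lowest ratio of all 101, the minor product of mir-14 was number 3. Its 407 reads in cdk9-G57S alone lie under the lowest summed count of a listed product, 1023. The median log2 ratio over all products was 0.24, with quartiles of -0.74 and 1.22, and over the 4 products the values ran from -2.34 to 1.63.

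**Figure D2:**
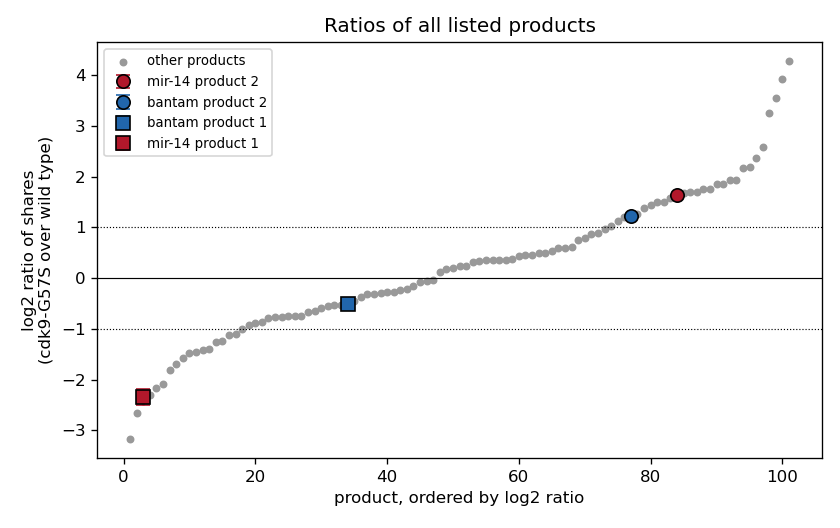
Log2 of the share in cdk9-G57S over that in wild type for each of the 101 products in increasing order; coloured symbols are the 4 products of mir-14 (red) and bantam (blue), circles for product 2 and squares for product 1, with 95% counting intervals, and dotted lines mark 2-fold. The main products lie at 1.63 (mir-14) and 1.23 (bantam), the minor products at -2.34 (mir-14) and -0.51 (bantam).

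Measured in percentage points, which weigh a ratio by abundance, both main products were near the top. The share of the main product of mir-14 was 10.8 percentage points larger in cdk9-G57S, the largest gain of any product and 29.8% of the summed gains of all 54 products whose share was larger there. The main product of bantam gained 1.64 points, number 3 among the gains and 4.53% of that sum. Between them stood a product of another hairpin, which gained 9.81 points. Its share was 14.1% in cdk9-G57S and 4.34% in wild type, a ratio of 3.26. Because the shares of a library have a fixed sum, gains are balanced by losses. The largest loss was that of the most abundant product, which held 16.4% in cdk9-G57S and 35.1% in wild type, a change of -18.7 points.

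By the nearest log2 ratio, the product of another hairpin most like the main product of mir-14 was MI0000132_1, with a log2 ratio of 1.59 and 8696 reads in cdk9-G57S against 2800 in wild type. For the main product of bantam it was MI0000361_2, with 1.22 and 2532 against 1056 reads. Likeness over 2 libraries is a single ratio, and with 101 products some lie close to any value. Both of these products were far less abundant than the main products of bantam and mir-14, and neither has a name in the table.

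The balance between the 2 products of a hairpin is free of the scaling of the libraries, because both products share the factor of their library. In the mir-14 hairpin the minor product made up 0.116% of 352092 reads in cdk9-G57S (0.105 to 0.127) and 1.78% of 111717 reads in wild type (1.71 to 1.86). Its log2 ratio lay 3.97 below that of the main product (normal-approximation interval of the difference -4.12 to -3.82), a 15.7-fold separation. At the wild-type balance, 351685 reads of the main product would have stood beside 6381 reads of the minor one, against the 407 that were counted. Those 407 reads are fewer than the lowest summed count of any listed product, 1023. The minor product's place in the table thus rested on its wild-type reads as well.

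In the bantam hairpin the minor product made up 7.22% of 67923 reads in cdk9-G57S (7.03 to 7.42) and 20.6% of 32696 reads in wild type (20.2 to 21.1). The log2 ratios of the 2 products lay 1.74 apart (difference -1.74, interval -1.80 to -1.68), a 3.34-fold separation in the same sense as in mir-14. At the wild-type balance, 16395 reads of the minor product would have stood beside the main one, against the 4904 counted. The bantam hairpin thus kept a sizeable minor product in both libraries, while that of mir-14 was a small fraction in both. The shift in balance was larger in mir-14 than in bantam by 2.23 on the log2 scale (interval of the difference 2.07 to 2.39), a comparison of the 2 libraries alone.

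A shift in balance was not particular to these 2 hairpins. In the 16 other hairpins with 2 listed products, the products' log2 ratios lay between 0.36 and 5.65 apart, with a median of 1.46, and 10 of the 16 were at least 2-fold apart. The mir-14 hairpin had the second widest separation of the 18 and bantam the ninth. No listed product had fewer than 1023 summed reads, and the minor product of mir-14 had 407 in cdk9-G57S. Its listing, and so the place of mir-14 in this order, rested on its wild-type reads as well. In mir-14 and bantam the main product was higher and the minor one lower in cdk9-G57S. That pattern held in 5 of the 16 others, and products went opposite ways in either sense in 7 of the 16. Both counts rest on shares of the total and, unlike the separations, can change with the scaling. In 6 of the others the main product was at least 2-fold higher, and in 4 of those the minor one was lower. Main and minor were set by mean share over both libraries, so a strong change can itself decide which product is called main. Both the 5 and the 4 included hairpins whose minor product was the larger in wild type, at 73.7%, 53.4% and 70.4% of hairpin reads. In mir-14 and bantam the minor product was the smaller in both libraries.

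**Figure D3:**
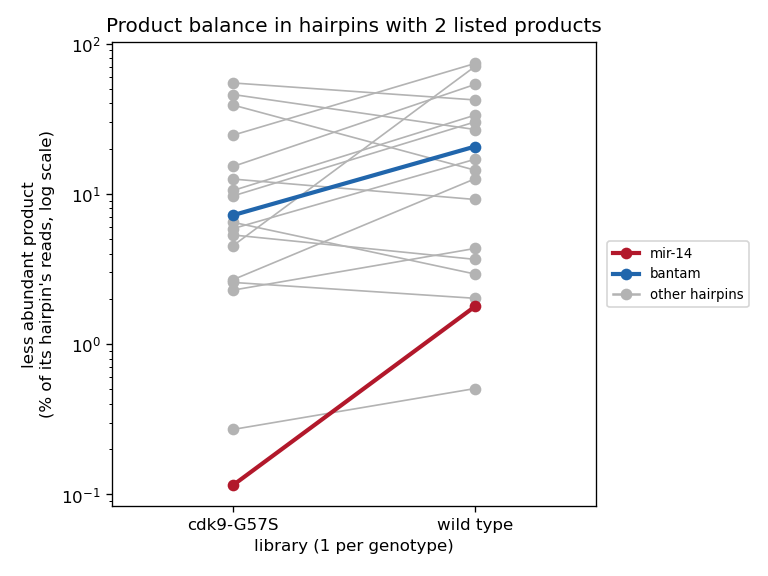
Reads of the less abundant product (by mean share over both libraries) as a percentage of its hairpin's reads (log scale) in cdk9-G57S (left) and wild type (right) for the 18 hairpins with 2 listed products, with mir-14 in red and bantam in blue. The line of mir-14 joins 0.116% in cdk9-G57S and 1.78% in wild type, and that of bantam joins 7.22% and 20.6%; lines of other hairpins slope both ways.

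In cdk9-G57S the minor share of mir-14 was the smallest of the 18 hairpins, and in wild type it was the second smallest. Over the 16 other hairpins, where the minor product is the less abundant by mean share over both libraries and can be the larger in 1 of them, this share had a median of 8.08% in cdk9-G57S (range 0.271 to 54.7) and 15.7% in wild type (0.507 to 73.7). The bantam share lay nearer the middle, at number 10 from the smallest in cdk9-G57S and number 11 in wild type. The other 65 hairpins had 1 listed product, and no listed product had fewer than 1023 summed reads. Hairpins with a scarcer partner product are therefore missing from this order. A very small minor share can be seen only in an abundant hairpin, so these ranks and medians hold for the listed pairs alone.

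Because nearly all reads of the mir-14 hairpin came from its main product, summing the products changed little there, and the hairpin's ratio was 3.05 (3.03 to 3.07), at 16.0% of the reads in cdk9-G57S and 5.23% in wild type. Summing mattered for bantam. Its hairpin had 3.08% of the reads in cdk9-G57S and 1.53% in wild type, a ratio of 2.01 with an interval of 1.99 to 2.04 that includes 2. Of the 83 hairpins, 28.9% were 2-fold or more higher, 12.0% lower by as much, and 41.0% either one. Mir-14 was number 15 and bantam number 24 from the highest hairpin ratio.

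Set against each other, the main product of mir-14 had 5.58 reads for each read of the main product of bantam in cdk9-G57S, against 4.23 in wild type, a 1.32-fold larger ratio (1.30 to 1.34). For the minor products the relation was turned round: that of bantam had 12.0 reads for each read of that of mir-14 in cdk9-G57S, against 3.39 in wild type, 3.55-fold more (3.17 to 3.98). Library preparation captures different small RNAs with different efficiency, so these ratios compare reads and not molecules.

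The direction of all 4 products was the same under each scaling tried, but the size of the bantam increase depended on it. On the authors' deposited normalized values, which lower every log2 ratio by 0.24 relative to shares of the total, the main product of bantam was 57133 in cdk9-G57S and 28616 in wild type, a ratio of 1.997, just under 2-fold. The main product of mir-14 was 318838 in cdk9-G57S and 121017 in wild type on that scale, a ratio of 2.63. On the deposited values 23.8% of all products were 2-fold or more higher, and as many were lower by 2-fold or more, 47.5% in either direction. The minor product of mir-14 was more than 4-fold lower under each of the 5 scalings, and that of bantam lay within 2-fold under each of them.

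**Figure D4:**
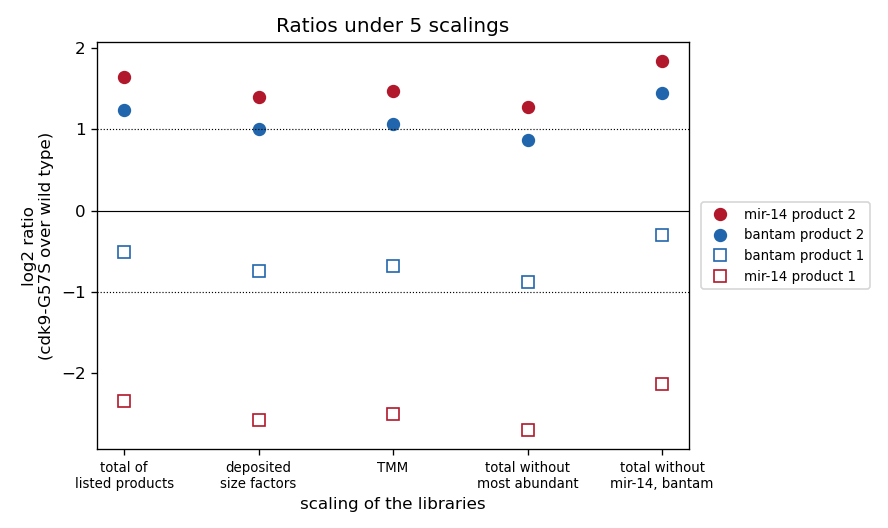
Log2 ratio (cdk9-G57S over wild type) of the 4 products under 5 scalings of the libraries, with filled circles for product 2, open squares for product 1 and dotted lines at 2-fold. The main product of mir-14 stays above the 2-fold line (1.27 to 1.84), that of bantam lies on both sides of it (0.87 to 1.44), and no product changes sign.

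Single reads that match several hairpins could not be traced in these counts, but some products of different hairpins had equal or nearly equal counts. In a pair of them each product had 3424 reads in cdk9-G57S and 2406 in wild type. Another pair had 40961 and 40964 in cdk9-G57S and 67924 and 67925 in wild type. If such products hold the same reads, the totals and the percentages over all products count them repeatedly, which was not tested. Of the 4 products, 3 had no product of another hairpin within 10% of their reads in both libraries. The exception was the minor product of mir-14, whose 407 reads in cdk9-G57S and 1991 in wild type lay within 6.48% of those of MI0000356_1, at 429 and 1862. Whether these 2 share reads was not tested. No product of another hairpin lay within 2% of any of the 4 in both libraries at once.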

How the data were processed

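Total RNA was extracted with Trizol and sequenced by Illumina, per the labels' protocols. The submitters' processing notes name Bowtie and dm3. How reads were trimmed, selected by length or assigned when they matched several hairpins is not given in the sources used here, nor is the microRNA release. Per product, the table has the authors' deposited raw read counts, whose sums equal the totals in its footer, and footer lines were left out. The lowest summed count of a listed product was 1023 reads, and rarer ones were not analysed here. The authors' deposited normalized signal is the counts divided by 1 size factor per library (1.10 for cdk9-G57S, 0.907 for wild type), made with DESeq2 per the file headers. The wild-type column was recorded as a mixed column because a footer cell is not whole.

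Raw counts were divided by library totals. Ratios of shares have exact conditional binomial intervals, shares exact Clopper-Pearson intervals, and changes of product ratios normal-approximation intervals from 4 counts. The intervals were tested on simulated counts that held counting error only, so that test does not cover variation between libraries. TMM factors came from edgeR 4.0.16 in R 4.3.3, intervals from scipy 1.17.1 and numpy 2.4.6, tables from pandas 2.3.3 and plots from matplotlib 3.10.9, all under Python 3.11.15. Alternatives were the deposited values, TMM, totals without the most abundant product or without mir-14 and bantam, a minimum of 5000 summed reads, 5 reads added to each count, limits of 1.5-fold or 4-fold, and hairpin sums.

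All products of the 2 hairpins were named, with 1 product of another hairpin nearest in log2 ratio to each main product. A list of 17 fly microRNAs linked to growth or survival was to be described too, but 0 accessions of the table matched a name in the gene table at hand, so it was not. Sequences were not used here. The members and lists were chosen with earlier results of these data known.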

Additional observations from a re-analysis of the deposited data

How the results depend on the processing

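All values here are log2 ratios, cdk9-G57S over wild type, under scalings that shift every product alike. On the deposited values they were 1.40 and -2.57 for the main and minor products of mir-14 and 0.998 and -0.74 for those of bantam, and 1.37 and 0.77 for the mir-14 and bantam hairpins. Under TMM they were 1.47, -2.50, 1.07, -0.68, 1.44 and 0.84 in the same order. With totals that omit the most abundant product they were 1.27, -2.70, 0.87, -0.87, 1.25 and 0.64. With mir-14 and bantam left out of the totals they were 1.84, -2.13, 1.44, -0.30, 1.81 and 1.21. The bantam hairpin was thus under 2-fold on 3 of these scales, and its main product on 2 (the deposited values and the totals without the most abundant product). A minimum of 5000 summed reads removed the minor product of mir-14, which gave a mir-14 hairpin ratio of 1.64, and a pseudocount of 5 moved none of the ratios or balances beyond its counting interval. The change in the log2 ratio of bantam to mir-14 was -0.60 with hairpins summed, against -0.40 for the main products. Of the 101 products, 14 passed a 4-fold limit and 66 a 1.5-fold limit, against 45 at 2-fold. Increases were 62.2% of the 2-fold differences with shares of the total, 50% on the deposited values and 44.2% without the most abundant product. No paired analysis was possible because there was a single library of each genotype. At these depths counting error was small, but variation between samples was not measured.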
